A study of Mus musculus with 12 samples.

Results

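Messenger RNA of 10 autophagy genes was followed across the cortex and cerebellum of SCA1 KI and WT mice. The genes were taken by symbol from the table of normalized counts and were Ulk1, Ulk2, Rb1cc1, Becn1, Atg5, Atg7, Map1lc3b, Gabarapl1, Sqstm1 and Tfeb. All 10 were found among 15759 entries, and all 10 were among the 15369 entries tested. SCA1 KI mice, on C57BL/6J, carried 1 Atxn1 allele with 154 glutamine codons and 1 with 2, both under the endogenous regulators of the gene, so that every cell that normally expresses Atxn1 could express the expanded allele. Controls were WT littermates that carried no expanded allele. Whole cortex or whole cerebellum was dissected at 12 weeks of age, and each of the 4 groups (WT cortex, SCA1 KI cortex, WT cerebellum and SCA1 KI cerebellum) held 3 libraries of poly-adenylated RNA. The labels list males, whereas the methods describe males and females combined. The libraries are named here by the letter or number of their column, which were B, C and D for WT cortex, A, E and F for SCA1 KI cortex, 2, 4 and 6 for WT cerebellum and 1, 3 and 5 for SCA1 KI cerebellum.

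Macroautophagy encloses cytoplasm and protein aggregates in a double membrane and delivers them to the lysosome. The kinases Ulk1 and Ulk2, held in a complex by the scaffold Rb1cc1 (FIP200), start the process, and Beclin 1, the product of Becn1, is part of the lipid kinase complex that marks the growing membrane. Atg7 and Atg5 belong to the ubiquitin-like system that joins proteins of the ATG8 family, here Map1lc3b (LC3B) and Gabarapl1, to membrane lipid. Sqstm1 encodes p62, a receptor that binds ubiquitinated cargo on one side and ATG8 proteins on the other, gathers in protein inclusions of many neurodegenerative disorders and is itself degraded with its cargo. Tfeb is a transcription factor of lysosomal and autophagy genes. Transcript levels do not measure autophagic flux or protein, and the amount of p62 protein in particular follows its own degradation as well as its mRNA.

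The genes lie on several chromosomes (GRCm38, GENCODE vM21). Sqstm1 spans chromosome 11 from 50199366 to 50210827 on the minus strand, with Becn1 (101285952 to 101302286) and Ulk2 (61775649 to 61855073) on the same strand of the same chromosome. Gabarapl1 lies on chromosome 6 from 129533160 to 129542346 and Atg7 on chromosome 6 from 114643097 to 114860614, both on the plus strand. Rb1cc1 lies on chromosome 1 from 6206197 to 6276648, Map1lc3b on chromosome 8 from 121590361 to 121598760, Atg5 on chromosome 10 from 44268358 to 44364291 and Tfeb on chromosome 17 from 47737030 to 47792419, all on the plus strand. Ulk1 lies on chromosome 5 from 110784488 to 110810097 on the minus strand. Exons of Ulk1, Ulk2, Atg5, Atg7 and Tfeb overlap no exon of another gene. Exons of the other members overlap antisense exons, over 3104 bases with Cntd1 for Becn1, 580 with Mrnip for Sqstm1, 570 with 1700101I11Rik for Gabarapl1, 558 with 4732440D04Rik for Rb1cc1 and 58 with Zcchc14 for Map1lc3b, and since use of strand in counting is not given in the sources used here, reads of such partners could not be told apart there.

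RefSeq promoter windows of GRCm38.p6, from 250 bases before to 50 bases after a transcription start, were held for 8 of the 10 members, all but Becn1 and Rb1cc1. Both strands of each were searched for 9 sets of letters. These were the E-box CACGTG (present in 7.15% of all 32851 windows), the TATA box TATAAA (13.6%), the GC box GGGCGG (35.7%), a core of the antioxidant response element as TGACNNNGC (12.4%) or as TGAGNNNGC (17.6%), a Capicua site as TGAATGAA (1.30%) or as TGAATGGA (1.21%), the cAMP response element TGACGTCA (1.79%) and the forkhead site GTAAACA (3.65%). The windows of Sqstm1 and Gabarapl1 are shown because Gabarapl1 had the profile most like that of Sqstm1 over the 12 libraries. That likeness includes the step between the regions. The window of Atg5 is shown because it held the most kinds of these letters while the mean of Atg5 hardly differed between the groups. Capitals mark every match.
Sqstm1, chr11:50210771-50211070, minus strand: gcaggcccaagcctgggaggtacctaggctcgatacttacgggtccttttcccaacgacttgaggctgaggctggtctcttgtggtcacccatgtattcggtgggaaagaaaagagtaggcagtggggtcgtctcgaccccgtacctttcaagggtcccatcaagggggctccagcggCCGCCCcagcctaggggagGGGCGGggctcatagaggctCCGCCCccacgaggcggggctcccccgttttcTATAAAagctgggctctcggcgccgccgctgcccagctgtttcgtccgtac
Gabarapl1, chr6:129532942-129533241, plus strand: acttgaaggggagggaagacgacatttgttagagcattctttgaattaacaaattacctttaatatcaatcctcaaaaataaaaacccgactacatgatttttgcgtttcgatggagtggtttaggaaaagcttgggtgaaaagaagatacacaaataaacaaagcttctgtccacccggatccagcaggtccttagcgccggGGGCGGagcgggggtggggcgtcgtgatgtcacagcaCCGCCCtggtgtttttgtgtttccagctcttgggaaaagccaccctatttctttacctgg
Atg5, chr10:44268089-44268388, plus strand: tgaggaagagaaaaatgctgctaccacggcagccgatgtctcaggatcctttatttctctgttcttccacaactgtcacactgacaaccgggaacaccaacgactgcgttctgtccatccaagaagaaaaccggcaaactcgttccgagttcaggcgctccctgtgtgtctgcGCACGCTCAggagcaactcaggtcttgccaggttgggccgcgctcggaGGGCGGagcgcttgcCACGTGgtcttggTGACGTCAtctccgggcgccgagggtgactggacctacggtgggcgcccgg
Sqstm1 held TATAAA beginning 1 base before the start and 3 GC boxes, and Gabarapl1 held 2 GC boxes and none of the other letters. Atg5 held an E-box beginning 14 bases before its start, a GC box, TGAGNNNGC and TGACGTCA. Among the other members, Atg7 held an E-box and TGAGNNNGC, Ulk1 held 5 GC boxes, Ulk2 and Map1lc3b each held a GC box and TGACNNNGC, and Tfeb held GC boxes in each of 3 windows and TGAGNNNGC in 2 of them. The Atg7 window, chr6:114670846-114671145, lies inside the gene, and the letters at its annotated start (114643097) were not searched. No member window held the Capicua or forkhead letters on either strand. A match describes the letters only.

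The libraries held 29520855 to 51311309 reads on genes, and pairs of replicates differed beyond sampling noise. The labels number replicates without naming animals, so p-values measure the spread between these libraries. Cell-type and region markers differed between the genotypes. In the cortex the summed normalized count of 6 thalamus and midbrain markers was 304 to 340 in WT and 956 to 1517 in SCA1 KI libraries, with 3 of 6 higher, 0 lower and Shox2 at 0 in all WT cortex libraries. The same sum was 2133 to 3500 in WT and 553 to 640 in SCA1 KI cerebellum, with 5 of 6 lower. There the sums were also apart, and lower in SCA1 KI, for 6 markers each of astrocytes (160960 to 165310 in WT, 128613 to 130897 in SCA1 KI, 2 of 6 lower), interneurons (42457 to 44672 and 34962 to 36775, 3 of 6 lower), Purkinje cells (324607 to 405364 and 286352 to 323303, 1 of 6 lower), oligodendrocytes (178046 to 266831 and 152414 to 152494, 0 of 6 lower), microglia (3340 to 4660 and 3157 to 3299, 1 of 6 lower) and striatum (5885 to 7053 and 4694 to 5227, 1 of 6 lower). The sum of 6 cortical excitatory neuron markers was apart in the higher direction (14261 to 18266 and 18675 to 20576), with 1 of 6 higher and 1 lower. In the cortex the sums for 6 markers each of excitatory neurons (88825 to 89781 in WT, 59296 to 68966 in SCA1 KI, 2 of 6 lower), interneurons (28651 to 29852 and 17885 to 22843, 3 of 6 lower), the Purkinje list (45774 to 48677 and 25639 to 30414, 4 of 6 lower) and astrocytes (80035 to 92758 and 59374 to 68243, 4 of 6 lower) were also apart. Of the Purkinje list, Itpr1 had 17419 to 36281 in cortex libraries and Pcp2 had 0 to 28.5. The sum of that list was therefore not read as Purkinje cells in the cortex. WT cortex library B stood above the other cortex libraries for striatal (16083) and oligodendrocyte markers (135047). In bulk tissue fewer cells of a type and less RNA per cell cannot be told apart. The LFC of Atxn1 itself, SCA1 KI minus WT, was −0.31 (adjusted p = 0.132 from limma) among cortex and 0.079 (adjusted p = 0.837) among cerebellum libraries.

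Within a library, levels were compared between members per kilobase of the principal transcript. In the WT cortex Gabarapl1 was the most abundant member at a mean of 12752 normalized counts per kilobase, followed by Sqstm1 at 7946 and Map1lc3b at 3189. Ulk2 (1189), Becn1 (933), Rb1cc1 (811), Ulk1 (795), Atg5 (444), Atg7 (284) and Tfeb (107) followed on the same scale. Rb1cc1 and Ulk1 were within the replicate spread of each other, whose coefficients of variation were 5.92% and 5.60%. In the WT cerebellum the first 3 places were the same, at 6853 for Gabarapl1, 5638 for Sqstm1 and 3047 for Map1lc3b, and the lowest were Tfeb at 241 and Atg7 at 237, which were also within their replicate spread. Per kilobase of all annotated exons the order differed in part, with Ulk2 (1142) above Map1lc3b (1074) and Atg5 (444) above Rb1cc1 (420) in the WT cortex, since the exons annotated for a gene exceed those of its main transcript to different degrees.

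**Figure D1:**
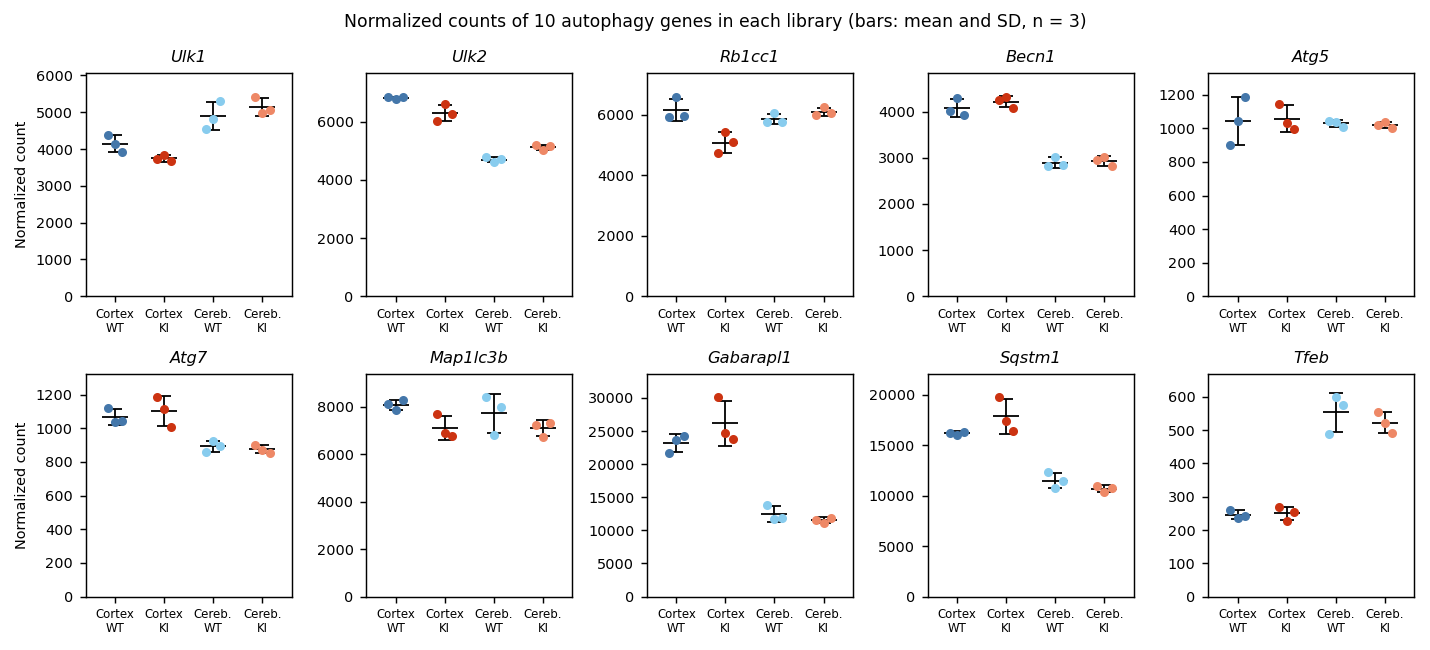
Normalized counts (vertical axes, each from 0) of the 10 members in each of the 12 libraries, by group. Points are libraries and bars the mean and SD of 3. Sqstm1, Gabarapl1, Becn1, Ulk2 and Atg7 lie higher in all cortex than in all cerebellum libraries, and Tfeb and Ulk1 lie lower in all cortex libraries. Rb1cc1 in the SCA1 KI cortex lies below every other library.

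The first question was which members differed between SCA1 KI and WT cortex. Rb1cc1, the scaffold of the initiating kinase complex, was the 1 member that passed the test, and it fell by 17.5% against WT. None of the other 9 members passed, and the p62 gene Sqstm1 had a mean 10.2% above WT, with 1 of 3 libraries well above the others. LFC is the difference of mean log2(normalized count + 1), SCA1 KI minus WT, and a gene was called at a Benjamini-Hochberg adjusted p under 0.05 over all 15369 genes with an absolute LFC over 0.25 (limma). Over all genes 15.6% were called in the cortex (4.82% higher and 10.8% lower), against 0 of 10 members higher and 1 of 10 lower. The median LFC of the members was 0.024, beside −0.0028 for all genes, and their median absolute LFC was 0.13, beside 0.16.

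Rb1cc1 had 5942, 6591 and 5976 normalized counts in WT cortex libraries B, C and D. It had 4725, 5434 and 5106 in SCA1 KI cortex libraries A, E and F. Every SCA1 KI library lay below every WT library. The means were 6170 ± 365 (SD, n = 3) in WT and 5088 ± 354 (SD, n = 3) in SCA1 KI, with an LFC of −0.28 (standard error 0.062, 95% interval −0.41 to −0.14, adjusted p = 0.00815 from limma). The estimate stood close to the limit on size, and without SCA1 KI library A (−0.23, adjusted p = 0.0256) or WT library C (−0.23, adjusted p = 0.0387) it no longer passed that limit. With each library's trend on exon length and GC content removed it was −0.22 (adjusted p = 0.0114). With the 2 cortex groups fitted on their own the LFC was the same and the adjusted p was 0.0605. Rb1cc1 has the longest exons of the members (14690 bases in all) and the lowest GC content (38.8%). The marker sums of excitatory neurons, interneurons and astrocytes were lower in the same SCA1 KI libraries, as was the sum of the Purkinje list. Those of thalamus and midbrain were higher. The part of these markers in the result was not tested.

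**Figure D2:**
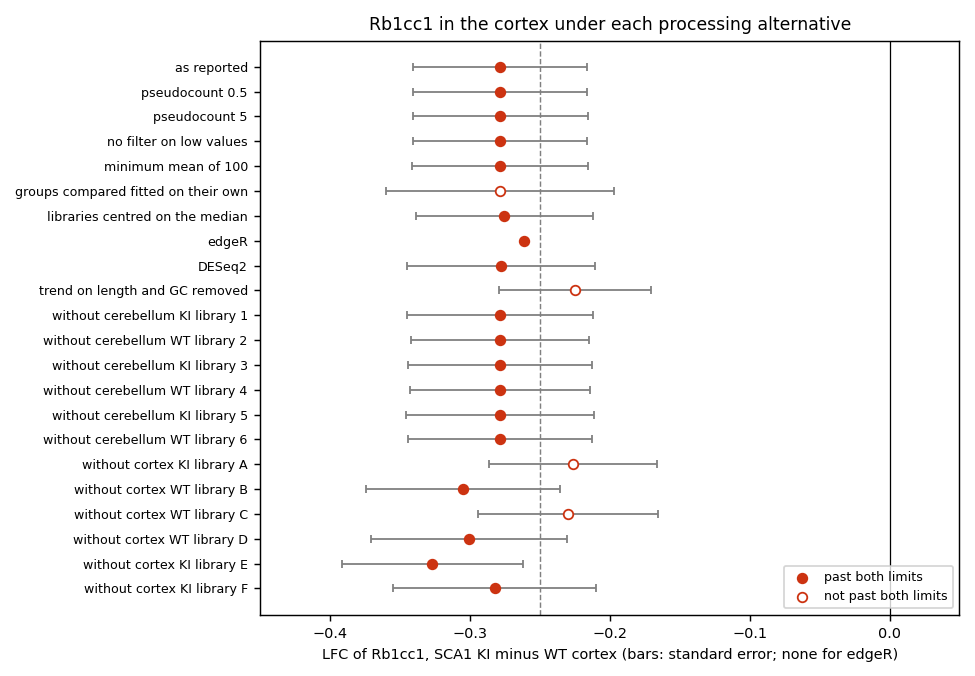
LFC of Rb1cc1 (horizontal axis), SCA1 KI minus WT cortex, as reported and under 21 alternatives, with the standard error as a bar. Filled points pass both limits, the dashed line is the limit of −0.25, and all estimates lie between −0.33 and −0.22.

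The kinases of the same complex had lower means in the SCA1 KI cortex without passing. Ulk1 had 4375, 4139 and 3912 normalized counts in WT libraries B, C and D and 3722, 3848 and 3676 in SCA1 KI libraries A, E and F. Its groups did not overlap, yet the LFC was −0.14 (95% interval −0.29 to 0.00084, adjusted p = 0.167 from limma), and with the trend on length and GC removed it was 0.0016. Ulk2 had 6850, 6793 and 6840 in WT and 6036, 6600 and 6277 in SCA1 KI, again without overlap, with an LFC of −0.12 (95% interval −0.22 to −0.010, adjusted p = 0.127). Groups without overlap were seen for 4 members in the lower direction (Rb1cc1, Ulk1, Ulk2 and Map1lc3b) and 1 in the higher (Sqstm1). Over all genes they were seen for 18.0% in the lower and 13.0% in the higher direction, 30.9% in all.

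Sqstm1 had 16223, 16004 and 16330 normalized counts in WT cortex libraries B, C and D, a narrow range. It had 19723, 17432 and 16363 in SCA1 KI libraries A, E and F, of which F lay just above the highest WT library. The means were 16185 ± 166 (SD, n = 3) and 17839 ± 1717 (SD, n = 3), a ratio of 1.10, and the LFC of 0.14 (standard error 0.071, 95% interval −0.017 to 0.29) did not pass (adjusted p = 0.217 from limma). Without library A the LFC was 0.061. No alternative called it, with adjusted p of 0.0854 to 0.575.

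Gabarapl1, an ATG8 protein of the GABARAP branch, had 21715, 23721 and 24191 normalized counts in WT libraries B, C and D and 30080, 24756 and 23769 in SCA1 KI libraries A, E and F. Library A was the highest for this gene too, whereas E lay just above and F within the range of WT. The LFC was 0.17 (95% interval −0.026 to 0.36, adjusted p = 0.229 from limma), and 0.065 without library A. Map1lc3b, the other ATG8 member, lay in the opposite direction with 8087, 7854 and 8282 in WT and 7665, 6887 and 6751 in SCA1 KI, and its LFC of −0.19 (95% interval −0.36 to −0.019) did not pass either (adjusted p = 0.123).

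Becn1, Atg5, Atg7 and Tfeb differed little. Becn1 had means of 4073 ± 200 (SD, n = 3) in WT and 4211 ± 118 (SD, n = 3) in SCA1 KI cortex. Atg5 had means of 1044 ± 144 and 1059 ± 78.0, with more spread among WT cortex libraries (898 to 1186) than any difference between genotypes. Atg7 had 1067 ± 45.3 and 1102 ± 87.7, and Tfeb 246 ± 13.9 and 250 ± 20.4. The LFCs of these 4 genes lay between 0.020 and 0.049, and the widest 95% interval of the 4 was that of Tfeb, the least abundant member, at −0.20 to 0.24.

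The second question was whether the cerebellum, the region best known for degeneration in SCA1, differed in the same genes. It did so for 0 of 10 members by limma, edgeR and DESeq2, beside 5.36% of all genes, of which 0.917% were higher and 4.44% lower. At an unadjusted p under 0.05 there was 1 member, Ulk2. The median LFC of the members was −0.019, beside −0.0049 for all genes.

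Ulk2 had 4773, 4603 and 4721 normalized counts in WT cerebellum libraries 2, 4 and 6. It had 5188, 5017 and 5156 in SCA1 KI libraries 1, 3 and 5, all above WT. The LFC was 0.12 (95% interval 0.018 to 0.23, adjusted p = 0.194 from limma). Over alternatives that kept all libraries it was 0.12 to 0.19, inside the limit on size, with adjusted p of 0.0318 to 0.196. This was the 1 member whose cerebellar groups did not overlap, as was the case for 14.3% of all genes in the higher direction and 17.5% in the lower (31.8% in all).

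Sqstm1 had 12292, 10769 and 11396 normalized counts in WT cerebellum libraries 2, 4 and 6 and 10979, 10334 and 10764 in SCA1 KI libraries 1, 3 and 5. The groups overlapped, and WT library 2 was the highest. The LFC was −0.10 (95% interval −0.25 to 0.051, adjusted p = 0.528 from limma), and 0.010 with the trend on length and GC removed. Gabarapl1 had 13803, 11732 and 11881 in WT and 11596, 11139 and 11938 in SCA1 KI, again with library 2 the highest, and an LFC of −0.11 (adjusted p = 0.626). Rb1cc1, called in the cortex, had 5782, 6070 and 5753 in WT and 5998, 6248 and 6061 in SCA1 KI, with an LFC of 0.057 (95% interval −0.079 to 0.19, adjusted p = 0.732). The remaining members had LFCs from −0.12 (Map1lc3b) to 0.075 (Ulk1) with adjusted p of 0.504 to 0.971.

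**Figure D3:**
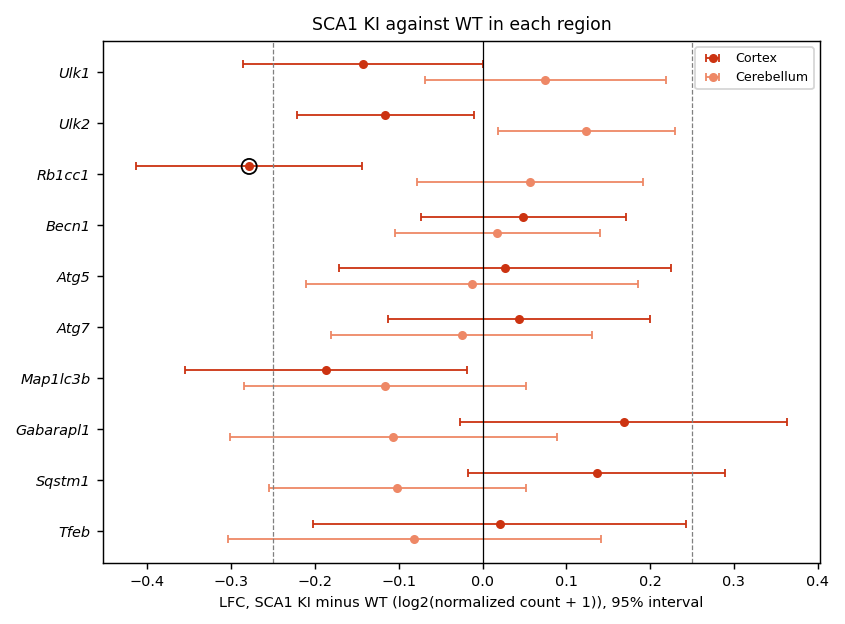
LFC of each member (horizontal axis), SCA1 KI minus WT, in cortex and cerebellum with 95% intervals from limma. Dashed lines mark the limits of −0.25 and 0.25 and a ring marks a call, of which Rb1cc1 in the cortex at −0.28 is the 1 shown.

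The third comparison tested whether the genotype effect differed between the regions, as the LFC in cortex minus that in cerebellum. Calls here needed an adjusted p under 0.05 alone, with no limit on size. Rb1cc1 differed by −0.34 (standard error 0.088, 95% interval −0.53 to −0.14, adjusted p = 0.0344 from limma), and it was the 1 of 10 members called, beside 8.15% of all genes (3.26% higher and 4.89% lower). It was called in 8 of 8 alternatives that kept all libraries, a limit of 1 on LFC aside (adjusted p 0.00631 to 0.0434). It was called in 4 of 12 fits that left out 1 library, and was lost without cerebellar libraries 1 (adjusted p = 0.0731), 2 (0.0660), 3 (0.0955), 5 (0.0735) and 6 (0.0821) and without cortical libraries A (0.0518), C (0.0834) and F (0.0594), with estimates of −0.38 to −0.28 over the 12 fits. Ulk2, lower in the SCA1 KI cortex by mean and higher in the SCA1 KI cerebellum, had a difference of −0.24 (95% interval −0.39 to −0.091) with an adjusted p of 0.0510. It passed with a minimum mean of 100 (0.0495), with centring on the median (0.0336), with DESeq2 (0.00594), with the trend on length and GC removed (0.0222) and without cortical library E (0.0316). Sqstm1 (0.24, adjusted p = 0.187), Gabarapl1 (0.28, adjusted p = 0.235) and Ulk1 (−0.22, adjusted p = 0.197) did not pass.

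The fourth comparison set cortex against cerebellum within each genotype, where the members differed most. Sqstm1, Gabarapl1, Becn1, Ulk2 and Atg7 were higher in the cortex in both genotypes, and Tfeb was lower in both. In WT this made 5 of 10 members higher and 1 lower, beside 31.0% and 30.7% of all genes (61.7% in either direction), so the members' count stood at the level of genes at large. In SCA1 KI it was 5 higher and 3 lower (Tfeb, Ulk1 and Rb1cc1), beside 32.0% and 30.5% (62.4% in either direction). The paper describes the cerebellum data as reanalysed from an earlier data set of the same laboratory, and whether both regions were sequenced together is not given in the sources used here. Libraries of the regions did not overlap for 5 members in the higher and 2 in the lower direction in WT, beside 35.1% and 34.8% of all genes (69.9% in all), and for 5 and 3 in SCA1 KI, beside 37.8% and 36.5% (74.3% in all). The WT and SCA1 KI comparisons share no library, while each shares its groups with the comparisons of the genotypes.

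Gabarapl1 had the largest difference of the members in the higher direction. It had 21715 to 24191 normalized counts in WT cortex and 11732 to 13803 in WT cerebellum, a ratio of 1.86, with an LFC of 0.90 (95% interval 0.70 to 1.09, adjusted p = 1.51e-06 from limma). In SCA1 KI the ratio was 2.27 and the LFC 1.17 (adjusted p = 1.16e-07). Sqstm1 was 1.41 times as high in the cortex in WT (LFC 0.50, 95% interval 0.34 to 0.65, adjusted p = 3.84e-05) and 1.67 times as high in SCA1 KI (LFC 0.73, 95% interval 0.58 to 0.89, adjusted p = 1.00e-06). Its lowest cortex library, C at 16004, lay above its highest cerebellum library, 2 at 12292. Becn1 had LFCs of 0.49 (adjusted p = 5.29e-06) and 0.52 (adjusted p = 2.90e-06) in WT and SCA1 KI.

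Ulk2 and Ulk1 lay on opposite sides. Ulk2 was higher in the cortex, by an LFC of 0.54 (95% interval 0.43 to 0.64) in WT and 0.30 (95% interval 0.19 to 0.40) in SCA1 KI. Ulk1 was lower in the SCA1 KI cortex than in the SCA1 KI cerebellum by −0.46 (adjusted p = 4.49e-05 from limma). In WT its LFC of −0.24 (adjusted p = 0.00647) stood just inside the limit on size, and it passed with edgeR (−0.27), with the trend on length and GC removed (−0.40), without cerebellar library 2 (−0.29) and without cortical library B (−0.28). Atg7 stood just outside the same limit in WT at 0.26 (adjusted p = 0.00656), and fell back inside with edgeR (0.23), with the trend removed (0.21) and without the same libraries 2 (0.23) and B (0.22).

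Tfeb had 235 to 261 normalized counts in WT cortex and 488 to 599 in WT cerebellum, without overlap. Its LFC was −1.17 (95% interval −1.39 to −0.94, adjusted p = 4.52e-07 from limma) in WT and −1.06 (adjusted p = 1.05e-06) in SCA1 KI. Of 6 transcription factors of autophagy and lysosome genes, 5 were lower in the cortex in each genotype (Tfeb, Mitf, Foxo1, Foxo3 and Zkscan3) and 0 higher, where 30.7% (WT) and 30.5% (SCA1 KI) of all genes were lower, and no test of the list was made. Rb1cc1 had an LFC of −0.26 (adjusted p = 0.00217) between the SCA1 KI regions, which was −0.058 (adjusted p = 0.360) with the trend on length and GC removed, −0.25 without cerebellar library 3 and −0.21 without cortical library A, and so not called in these. Map1lc3b and Atg5 had LFCs of 0.071 and 0.010 in WT and 0.00078 and 0.050 in SCA1 KI, and were called in neither.

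**Figure D4:**
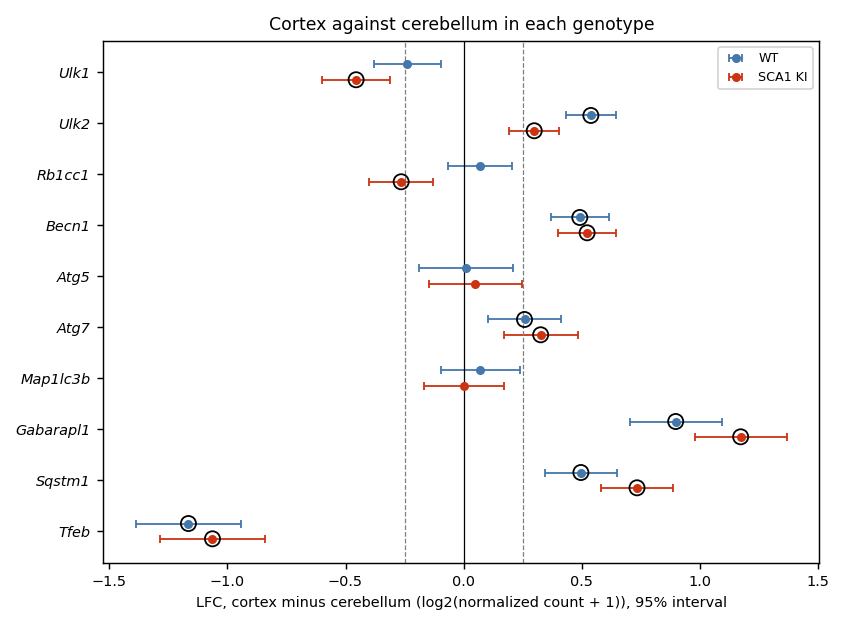
LFC of each member (horizontal axis), cortex minus cerebellum, in WT and SCA1 KI with 95% intervals from limma. Rings mark calls, which run from Gabarapl1 at 1.17 to Tfeb at −1.17, while Atg5 and Map1lc3b lie between 0 and 0.071.

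The pattern of Sqstm1 over the 12 libraries was then set beside those of 12664 genes that averaged at least 100 normalized counts, as Pearson's r of log2 values. The most alike were Gabarapl1 (0.993), Slc5a5 (0.992), Prnp (0.992), Mllt11 (0.990) and Caly (0.990), all of which share the step between the regions. After the mean of each region was subtracted, the most alike were Dpm2 (0.954), Clpp (0.946), Ube2l3 (0.945), Fto (0.936) and Fam229b (0.934). The values describe 12 libraries that share their depth and scaling, and no test was made. Within a region, over 6 libraries of both genotypes, the 45 pairs of members gave 90 relations, of which 0 had an adjusted p under 0.05 by an exact permutation test (11 at an unadjusted p under 0.05). Sqstm1 and Gabarapl1 had Pearson's r of 0.93 in the cortex (Spearman's rho 0.89, exact permutation p = 0.0111 and 0.0333, adjusted p = 0.200 and 0.429). Without A and E, the 2 libraries farthest from the median of Sqstm1, r was 0.12. Leaving out the extremes of Sqstm1 narrows its range, so the lower r does not show what the relation rests on. The same pair had r of 0.93 in the cerebellum as well (rho 0.60, exact permutation p = 0.0167 and 0.242, adjusted p = 0.203 and 0.806). There r was 0.13 without libraries 2 and 3, chosen by the same rule and with the same limit.

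The other genes of the pathway were taken from 12 lists by function, chosen with earlier results of these data known, which add 147 genes to the members. In the cortex 7 of the 147 rose (4.76%) and 8 fell (5.44%) in SCA1 KI, beside 4.82% and 10.8% of all genes. This made 10.2% in all, beside 15.6%, with a median LFC of −0.0099 beside −0.0028. In the cerebellum 0 rose and 1 fell (0.680%, beside 5.36%), with a median LFC of 0.0039 beside −0.0049. Counts per list below are to be read beside these shares of all genes, and no list was tested. Of 5 genes of the initiating complex, 0 rose and 1 fell in the cortex (Rb1cc1), and the others, Atg13 and Atg101 included, had LFCs between −0.14 and −0.11. The 9 genes of the class III PI3-kinase complexes, the 5 of the ATG8 family and the 14 of autophagosome fusion held 0 calls in either region. The removal of the trend on length and GC changed the split of all calls from 741 higher and 1661 lower to 1026 and 1331 in the cortex, and from 141 and 683 to 487 and 573 in the cerebellum.

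Among 17 cargo receptors and adaptors, the group of Sqstm1, 1 rose in the cortex and 0 fell. This was Optn (optineurin), a receptor that like p62 binds ubiquitinated cargo and ATG8 proteins. Optn had 625, 660 and 671 normalized counts in WT cortex libraries B, C and D. It had 986, 952 and 954 in SCA1 KI libraries A, E and F, well apart from WT. The LFC was 0.56 (standard error 0.066, 95% interval 0.42 to 0.71, adjusted p = 1.15e-04 from limma), and it was called in 21 of 21 alternatives, changes of the limit on size aside (0.53 to 0.59). In the cerebellum Optn had means of 1070 ± 45.3 (SD, n = 3) and 1052 ± 52.4 (SD, n = 3), with an LFC of −0.025 (adjusted p = 0.903). Nbr1, the receptor most related to p62, had a cortical LFC of −0.11 (adjusted p = 0.222).

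Of 10 genes of the ATG9 vesicle and lipid transfer, 1 rose and 1 fell in the cortex. Atg9b, 1 of the 2 ATG9 scramblases, had 162, 142 and 159 normalized counts in WT cortex libraries B, C and D and 316, 234 and 253 in SCA1 KI libraries A, E and F. Its LFC was 0.78 (adjusted p = 0.0320 from limma), and the call was lost without A (adjusted p = 0.109), B (0.0610), C (0.104), D (0.0599) or F (0.0591). In the cerebellum Atg9b had 123, 59.9 and 87.4 in WT libraries 2, 4 and 6 and 35.4, 26.8 and 35.8 in SCA1 KI libraries 1, 3 and 5, and it fell by 1.39 on the log2 scale (adjusted p = 0.00324), a call kept in 21 of 21 alternatives. The 6 thalamus and midbrain markers moved unevenly with it. In SCA1 KI, 3 of 6 were higher and 0 lower in the cortex (Pou4f1, Tal1 and Shox2), and 0 were higher and 5 lower in the cerebellum (those 3, Tcf7l2 and Gata3). Among SCA1 KI cortex libraries Pou4f1 (372 normalized counts) and Tal1 (991) were, like Atg9b, highest in A. Shox2 (51.4), Tcf7l2 (310), Gata3 (46.0) and Irx3 (48.7) were highest in F. Tcf7l2 had 108 in A, below its 177 to 208 in WT cortex. Among WT cerebellum libraries Pou4f1, Tal1, Shox2, Tcf7l2 and Gata3 were, like Atg9b, highest in 2 and lowest in 4. Irx3 had 330 to 352 in WT and 288 to 346 in SCA1 KI cerebellum. The part of these markers in the result for Atg9b was not tested. Wipi1, a reader of the autophagic membrane lipid, had an LFC of −0.26 (adjusted p = 0.0275), which was not called without A (adjusted p = 0.0788), B (0.0848), D (0.0714) or E (0.0506), with the cortex groups fitted on their own (0.129), with the trend on length and GC removed (0.0622) or, by size, with edgeR (−0.24).

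Of 11 genes of the ATG8 conjugation machinery, 1 rose and 2 fell in the cortex. Atg16l2, a relative of the conjugation factor Atg16l1, had an LFC of 0.49 (adjusted p = 0.0163 from limma), with 387 to 496 normalized counts in WT and 587 to 599 in SCA1 KI. It was not called without WT library C (adjusted p = 0.0674) or D (0.0556). Atg12, the partner to which Atg5 is joined, had 2914 to 3421 in WT and 2550 to 2669 in SCA1 KI, with an LFC of −0.27 (adjusted p = 0.0107) that was −0.22 without WT library C. Atg4c, a protease of ATG8 proteins, had an LFC of −0.25 (adjusted p = 0.0158) at the limit on size, and was not called without A (−0.245), C (−0.23), D (−0.22) or F (−0.22). Neither Atg4c (adjusted p = 0.0875) nor Atg12 (adjusted p = 0.0628) passed with the cortex groups fitted on their own, and Atg4c passed neither with centring (−0.250) nor with edgeR (−0.24).

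Foxo3, a forkhead factor known to induce autophagy genes, was the 1 of 6 transcription factors called in the cortex. It had 2247, 1928 and 2200 normalized counts in WT libraries B, C and D and 1352, 1644 and 1300 in SCA1 KI libraries A, E and F. The groups were apart, with an LFC of −0.57 (95% interval −0.82 to −0.33, adjusted p = 0.00366 from limma), and it was called in 21 of 21 alternatives. The cerebellar LFC was 0.15 (adjusted p = 0.573). The related Foxo1 had a cortical LFC of 0.16 (adjusted p = 0.399), and Tfe3 and Mitf, relatives of Tfeb, had 0.038 and 0.12.

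Of 32 lysosomal proteins, 2 rose and 1 fell in the cortex and 0 were called in the cerebellum. Gaa, the acid alpha-glucosidase that degrades glycogen, had 9190 to 10677 normalized counts in WT cortex and 12678 to 12720 in SCA1 KI cortex, with an LFC of 0.39 (adjusted p = 0.00514 from limma). Sgsh, a sulfamidase of heparan sulfate, had an LFC of 0.44 (adjusted p = 0.00541), and both were called in 21 of 21 alternatives. Neu1, a lysosomal sialidase, had an LFC of −0.29 (adjusted p = 0.00527), which was −0.23 with the trend on length and GC removed and −0.245 without WT library D.

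Among 30 genes of mTORC1, the kinase complex that holds autophagy back, and its regulators, 1 rose and 1 fell in the cortex. Rragb, a Rag GTPase, had 2522 to 2823 normalized counts in WT and 3218 to 3671 in SCA1 KI cortex, with an LFC of 0.35 (adjusted p = 0.00269 from limma), called in 21 of 21 alternatives. Fnip1, a partner of folliculin, had an LFC of −0.25 (adjusted p = 0.0155) that was not called without C (−0.22), D (−0.23) or F (−0.22), with the cortex groups fitted on their own (adjusted p = 0.0721), with centring (−0.248) or with edgeR (−0.24). In the KEAP1-NRF2 system, which p62 feeds by binding KEAP1, 1 of 10 genes rose and 0 fell. Nqo1, a quinone reductase, had 108 to 133 in WT and 156 to 189 in SCA1 KI cortex, with an LFC of 0.49 (adjusted p = 0.0407), and was not called in 8 of 12 fits that left out 1 library (3, 4, 6, A, B, C, E or F), at adjusted p of 0.0501 to 0.124, with the cortex groups fitted on their own (0.0710) or with the trend on length and GC removed (0.0569). Keap1 had an LFC of 0.098 (adjusted p = 0.344) and Nfe2l2, which encodes NRF2, −0.067 (adjusted p = 0.692).

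Of 10 kinases and partners of p62, 0 rose and 2 fell in the cortex. Prkcz, an atypical protein kinase C that binds the PB1 domain of p62, had 10677, 11522 and 11518 normalized counts in WT libraries B, C and D and 8634, 8758 and 8321 in SCA1 KI libraries A, E and F. The groups were apart, and the LFC was −0.39 (95% interval −0.54 to −0.24, adjusted p = 0.00217 from limma). Mapk14, the kinase p38 alpha, had an LFC of −0.32 (adjusted p = 0.00739), with 4247 to 4597 in WT and 3279 to 3810 in SCA1 KI. Both were called in 21 of 21 alternatives, and in the cerebellum their LFCs were 0.014 (adjusted p = 0.958) and 0.044 (adjusted p = 0.832). Marker sums of neurons and astrocytes were lower in the same SCA1 KI cortex libraries, and their part in these results was not tested.

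**Figure D5:**
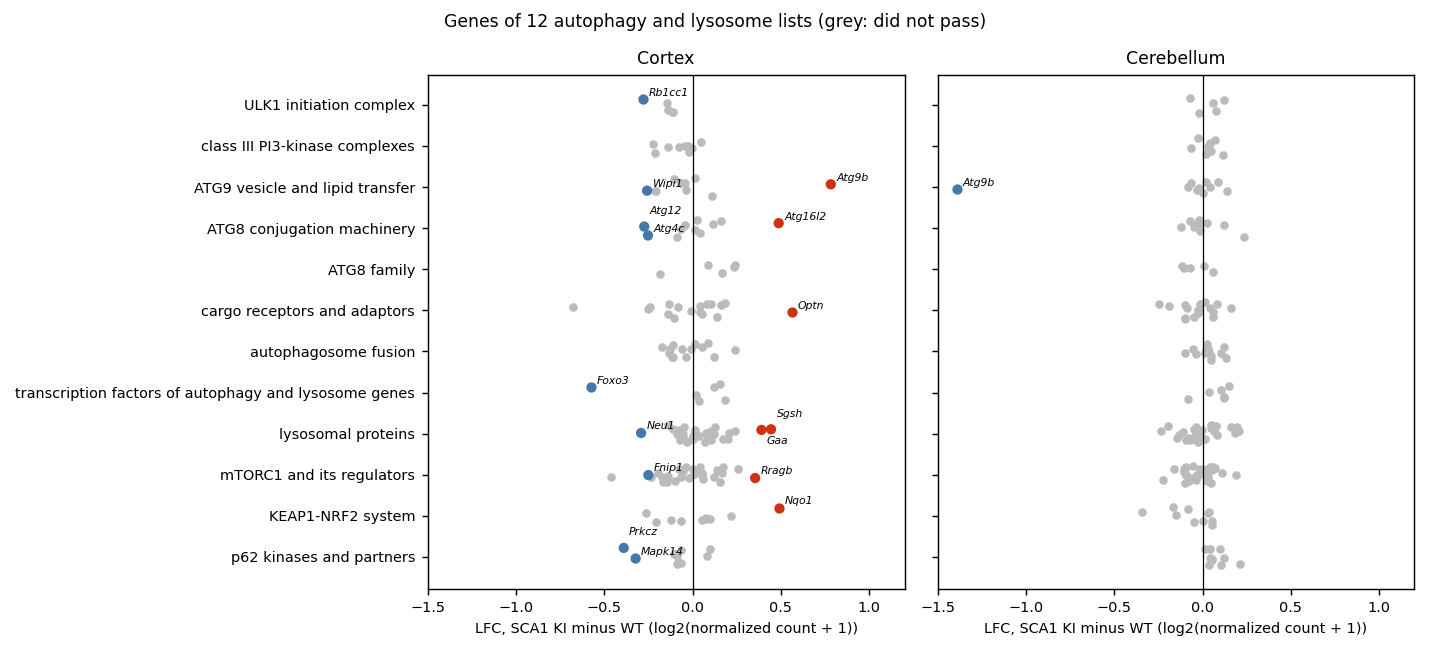
LFC of the genes of 12 lists (horizontal axes), SCA1 KI minus WT, in cortex and cerebellum, with the 10 members included where a list holds them. Grey points did not pass, and red and blue points were called higher and lower. In the cortex calls run from Foxo3 at −0.57 to Atg9b at 0.78, and in the cerebellum Atg9b at −1.39 is the 1 call.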

How the data were processed

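Poly-adenylated RNA of 12 libraries was sequenced as paired ends, and per the methods and the submitters' processing notes the authors aligned reads with STAR to mm10, counted them with featureCounts and normalized them with DESeq2. The deposited signal is 1 table of normalized counts, reads divided by a size factor per library. In each library 100% of values were whole multiples of 1 read (tolerance 0.01), so whole reads were recovered for edgeR 4.0.16 (quasi-likelihood test) and DESeq2 1.42.0. Columns name the group but no replicate of the labels.

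For 15369 entries that averaged at least 10, log2(normalized count + 1) of 12 libraries was modelled by 4 group means in limma (version 3.58.1, R 4.3.3, eBayes with trend). This scale understates changes of low genes. Symbols matched GENCODE vM21 for 14978 of 15759 entries. The script was tested on simulated data. Permutation tests were exact and 2-sided.

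The members and gene lists were chosen with earlier results of these data known. Named genes are the members, up to 3 genes per list called with the smallest p in a region, list genes called in the difference between regions, the genes most alike to Sqstm1, and Atxn1. Other genes were named after their values were seen. Alternatives were another pseudocount (0.5 or 5), another filter (none, or a minimum mean of 100), groups fitted on their own, centring on the median, edgeR, DESeq2, no limit or a limit of 1 on LFC, removal of trends on length and GC, and leaving out each library.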

Additional observations from a re-analysis of the deposited data

Results flagged for a closer look

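The genotype effect differed between cortex and cerebellum, by the test of that difference in limma, for 10 genes of the members and lists. They were 1 of the 10 members and 9 of the 147 other list genes (6.12%), beside 8.15% of all genes. The difference, cortex minus cerebellum on the log2 scale, was 2.17 for Atg9b (adjusted p = 0.00152), with opposite directions called in the regions, and 0.59 for Optn (adjusted p = 0.00223), 0.62 for Gaa (adjusted p = 0.00534), −0.44 for Fnip1 (adjusted p = 0.00889) and −0.72 for Foxo3 (adjusted p = 0.0143). Calls were made on the adjusted p alone. All 5 of these genes were called in 20 of 20 alternatives, changes of the limit on size aside. It was 0.39 for Rragb (adjusted p = 0.0224), which passed in 17 of 20 and was lost with the trend on length and GC removed (adjusted p = 0.0854) and without cerebellar library 1 (0.0680) or 5 (0.0548).

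For Prkcz the difference was −0.40 (adjusted p = 0.0247), passing in 14 of 20, and it was lost with the trend removed (0.0548) and without cerebellar library 1 (0.0758) or 3 (0.0648) or cortical library C (0.0632), D (0.0503) or F (0.0554). Neu1 differed by −0.34 (adjusted p = 0.0290), passing in 11 of 20, and was lost without cerebellar library 1, 2, 3, 5 or 6 or cortical library C, D, E or F (adjusted p 0.0530 to 0.0813). Rb1cc1 differed by −0.34 (adjusted p = 0.0344), passing in 12 of 20, and was lost without cerebellar library 1, 2, 3, 5 or 6 or cortical library A, C or F (adjusted p 0.0518 to 0.0955). Mapk14 differed by −0.37 (adjusted p = 0.0416), passing in 11 of 20, and was lost with edgeR (0.0510) and without cerebellar library 1, 2, 3, 5 or 6 or cortical library B, C or F (adjusted p 0.0650 to 0.118). The thalamus and midbrain marker sums also moved in opposite directions in the regions, and their part in these differences was not tested.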

How the results depend on the processing

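Of 10 members, the count called in the cortex between the genotypes was 1, and it was 0 with the 2 groups fitted on their own, with the trend on length and GC removed and with a limit of 1 on LFC, and 0 to 1 over fits that left out 1 library. The cerebellar count was 0 in every alternative run. The count of members whose genotype effect differed between regions was 1, was 2 with a minimum mean of 100, centring, DESeq2 or the trend removed, was 0 with a limit of 1, and was 0 to 2 without 1 library. Between regions, a limit of 1 left 1 of 6 members in WT and 2 of 8 in SCA1 KI. Over all genes a limit of 1 on LFC left 323 calls in the cortex, 312 in the cerebellum, 403 for the difference, 3620 between WT regions and 3622 between SCA1 KI regions, and leaving out 1 library gave 399 to 976 calls in the cerebellum (824 with all libraries; 399 without library 1, 454 without 3 and 512 without 5) and 784 to 1264 for the difference (1253; 784 without library 1 and 834 without 3).

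Directions reversed for members that were not called. With the trend on length and GC removed, the LFC was −0.038 for Atg5 and 0.0016 for Ulk1 in the cortex, and 0.064 for Atg5, 0.010 for Sqstm1, 0.052 for Tfeb, 0.061 for Atg7 and 0.0077 for Gabarapl1 in the cerebellum. It was −0.10 for Atg5 in the difference and, between SCA1 KI regions, −0.096 for Atg5 and −0.023 for Map1lc3b. With centring it was 0.012 for Atg5 in the cerebellum and −0.0029 for Map1lc3b between SCA1 KI regions, and with edgeR −0.0067 for Atg5 between WT regions and −0.0056 for Map1lc3b between SCA1 KI regions. Over fits that left out 1 library, the LFC ranged for Atg5 from −0.076 to 0.12 in the cortex, −0.027 to 0.0010 in the cerebellum, −0.064 to 0.14 in the difference, −0.087 to 0.11 between WT regions and −0.0086 to 0.092 between SCA1 KI regions. It ranged for Atg7 from −0.0099 to 0.11 in the cortex and −0.054 to 0.0020 in the cerebellum, for Becn1 from −0.0034 to 0.049 in the cerebellum and −0.00045 to 0.070 in the difference, for Tfeb from −0.032 to 0.085 in the cortex, and for Map1lc3b from −0.13 to 0.018 in the difference, −0.017 to 0.13 between WT regions and −0.055 to 0.036 between SCA1 KI regions. The cause was not tested.

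No paired analysis was possible because the columns carry no replicate number of the labels. With 3 libraries a group, standard errors of the members' LFCs were 0.049 to 0.10, and Rb1cc1 in the cortex, Atg7 and Ulk1 between WT regions stood close to the limit of 0.25.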
